A study of Mus musculus with 45 samples.

Results

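Reprogrammed cells kept in 2i-LIF were compared with embryonic stem cells kept in the same medium, in long-read RNA sequencing libraries made in 2 ways. The libraries were chosen by their labels: every OKMS or OKS library in 2i-LIF and every stem cell library in 2i-LIF, 14 of the 45 libraries of the series. Of these, 5 were reprogrammed cells and 9 were stem cells. The reprogrammed cells came from neural progenitors derived from Oct4-GFP embryonic stem cells of the line O4G, with the genotype OKMS-Luciferase-AS or OKS-Luciferase-AS, and the labels do not say what the luciferase element does. OKMS and OKS name the reprogramming factors Pou5f1 (Oct4), Klf4, Myc and Sox2, with Myc left out of OKS. In the R9 libraries these cells had started in FBS-LIF with doxycycline and were moved to 2i-LIF at day 6, and they were collected as OKMS cells at day 14, OKMS cells at day 20 and OKS cells at day 20. In the R10 libraries OKMS and OKS cells were collected at day 18 in 2i-LIF, with no day stated for the move. The stem cells were wild type: 1 library each of O4G and R1 in R9, and in R10 2 libraries of O4G, 2 of R1 clone 3, 2 of R1 with an n number and 1 of R1 without one. The R9 protocol reads unamplified cDNA made from poly(A)-selected RNA and the R10 protocol reads PCR-amplified cDNA made from total RNA, so each comparison was made within a chemistry or with the chemistry as a term. Each reprogrammed condition had 1 library, and no label says that libraries of one group came from separate cultures, so p-values measure the spread between these libraries only.

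The 2i-LIF medium holds mouse pluripotent cells in the naive state, the state of the early epiblast. PD0325901 in it blocks the kinase MEK, CHIR-99021 blocks the kinase GSK3 and so lets beta-catenin build up, and LIF acts through STAT3. Naive cultures pass through rare spells with genes of the 2-cell embryo, and the imprinted Dlk1-Dio3 locus is known as a place where induced pluripotent cells can differ from embryonic stem cells.

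Depth differed between the arms. The R9 reprogrammed libraries held 818757 to 930324 reads and the R9 stem cell libraries 1056188 and 1074415. The R10 reprogrammed libraries held 567129 and 639285 reads, while the R10 stem cell libraries held 2231872 to 4245818. All 14 libraries carried the stem cell label in their RNA: the 6 stem cell markers summed to 9800 to 13422 CPM (reads of a gene scaled to a common library total) in R9 reprogrammed cells against 12228 and 13613 in R9 stem cells, and to 15721 and 14028 against 11001 to 13551 in R10. In the 8 progenitor libraries, which were of wild-type, OKMS and OKS genotype, the same markers summed to at most 30.4 CPM. The 8 progenitor libraries held 4560 to 7231 CPM of neural progenitor markers, against 6.49 to 47.1 CPM in the 9 stem cell libraries. The 3 OKMS libraries in 2i-LIF held 1.76 to 22 CPM of them, and the OKS libraries 61.7 CPM in R9 and 68.8 CPM in R10, above every stem cell library. After thinning to one depth, the Spearman correlation over genes of each R9 reprogrammed library with the mean of both R9 stem cell libraries was 0.919 to 0.930. The value between the single O4G and R1 libraries was 0.932, which is not a like measure because no mean entered it. In R10 the reprogrammed libraries had correlations of 0.895 and 0.901 with the mean of the stem cells. The 6 stem cell libraries with an n number had 0.947 to 0.956, each against the mean of the other stem cells. The R1 library without an n number stood apart, with a correlation of 0.892 and 0.124% of its CPM in mitochondrial genes against 1.81% to 2.35% in the other R10 stem cells. Without it 607 genes passed the combined test described below instead of 479.

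The R10 reprogrammed libraries also differed by chromosome from the stem cell line named in their labels. On chromosome 8 the median log2 difference of expressed genes from the other stem cell libraries was 0.27 in R10 OKMS cells and 0.21 in R10 OKS cells. It was 0.26 in each of the R1 clone 3 libraries and -0.16 and -0.10 in the O4G libraries. On chromosome 3 it was -0.20 and -0.12 in the reprogrammed libraries, -0.21 and -0.20 in R1 clone 3, and 0.16 and 0.09 in O4G. In R9 the reprogrammed libraries stayed between -0.03 and 0.04 on chromosome 8. The R1 libraries with an n number stood 0.32 higher on chromosome 6 and 0.26 and 0.27 higher on chromosome 16. Centring each chromosome in each library left 491 genes past the combined test. What sets these chromosome medians was not tested.

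**Figure D1:**
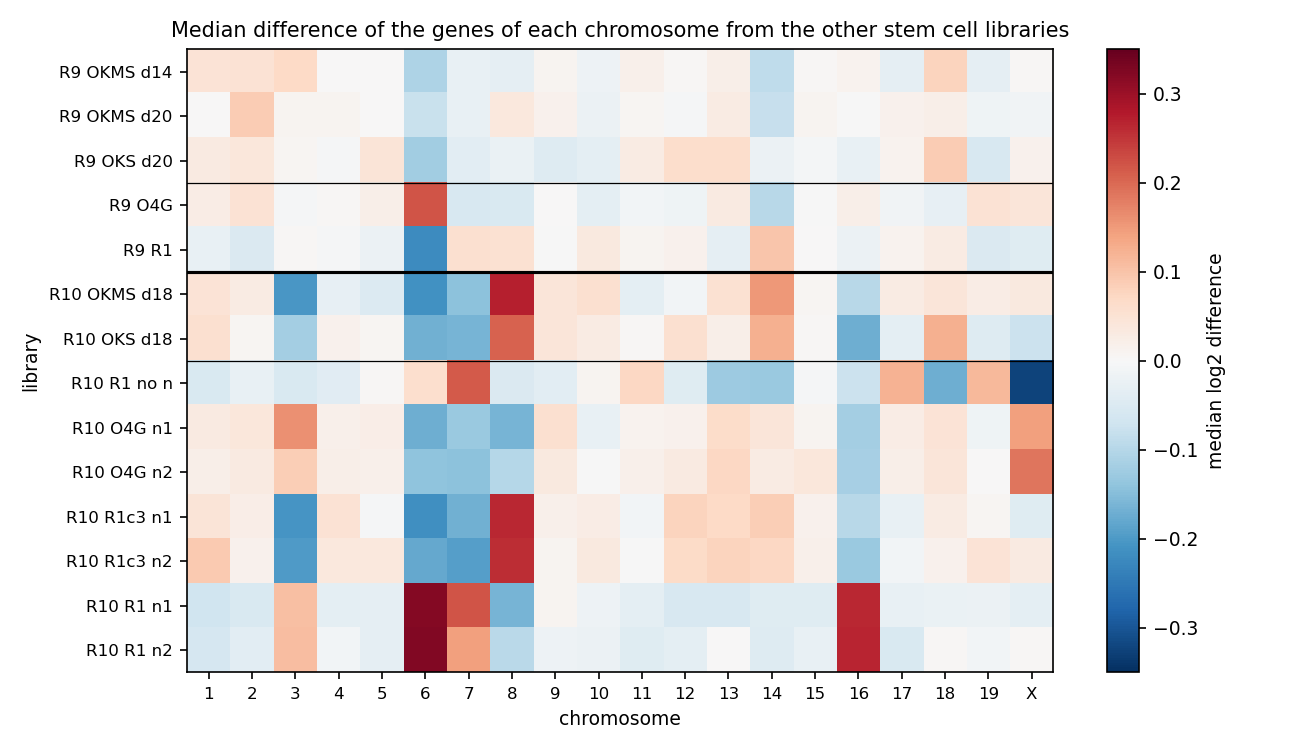
Median log2 difference of the genes of each chromosome (columns) from the other stem cell libraries of the same chemistry, for each of the 14 libraries (rows), over genes with a mean of at least 30 CPM on chromosomes with at least 100 such genes. R10 OKMS and OKS cells share the high chromosome 8 and low chromosome 3 of R1 clone 3, at 0.27 and 0.21 on chromosome 8.

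Of 14932 genes tested in both chemistries together, 479 (3.21%) differed between reprogrammed cells and stem cells, 260 (1.74%) higher and 219 (1.47%) lower in reprogrammed cells. A gene was counted when limma gave it an adjusted p under 0.05 and a difference of at least 1 in log2(CPM + 1), and 3104 genes had an unadjusted p under 0.05. Of the 479, 234 had a mean under 5 CPM and 389 a mean under 20 CPM, so most of the counted genes were scarce. The minimum level for testing was 1 CPM, which 1 read reached in every reprogrammed library and in no stem cell library. Scarce genes could thus enter the test more easily through the reprogrammed libraries. The stricter requirement that every reprogrammed library lay on one side of every stem cell library in R9 and again in R10 was met by 284 of the genes (1.9% of those tested). These 284 are called concordant below, and 167 were higher and 117 lower in reprogrammed cells. Without regard to the test, 625 genes (4.19%) were separated in this way on the same side in both chemistries. Among the concordant genes were 195 protein-coding genes, 19 long non-coding RNA genes and 41 unannotated genes. edgeR's quasi-likelihood test on the reads recovered from the CPM counted 206 genes, 154 higher and 52 lower, and 152 of the 284 concordant genes were among them (111 higher and 41 lower). The balance of higher and lower genes therefore moved with the test and scaling: it was 221 to 60 with DESeq2, 308 to 173 after median centring and 205 to 250 with a pseudocount of 0.25.

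The genes named below follow a rule set by the size of the difference and by the lists, except Dlk1, Dio3, Lef1, T, Tcf7, Nanog, Klf5, Fabp7 and Olig2, list members chosen after their values were seen, as were Stra8 and Gm1995. So were Eif1ax, Bclaf3, Pttg1, Coil, Rpl39l and Trap1a, abundant genes outside the lists that are given last.

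Each chemistry on its own gave a different yield. R9, with 3 libraries against 2, counted 90 of 15460 genes (0.582%), and R10, with 2 against 7, counted 1411 of 15865 (8.89%). edgeR counted 164 genes in R9 and 241 in R10. On simulated reads with these depths, limma called many more unchanged genes in R10 than edgeR did, and most of those calls did not overlap between the arms. A smaller excess appeared in the combined fit, and more of it was concordant than not. The R10 count, and to a lesser degree the combined and concordant counts, may therefore hold false calls, and edgeR's smaller counts are given beside them. The simulation gave every gene the same spread and held no differences between stem cell lines and no outlying library. It therefore does not give the share of false calls in the real libraries. Leaving out any 1 of the 5 R9 libraries brought the limma count for R9 to 0, with 1082 to 1803 genes still at an unadjusted p under 0.05. The test of whether the difference itself changed between the chemistries counted 171 genes (1.15%), and 2 of them were concordant.

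**Figure D2:**
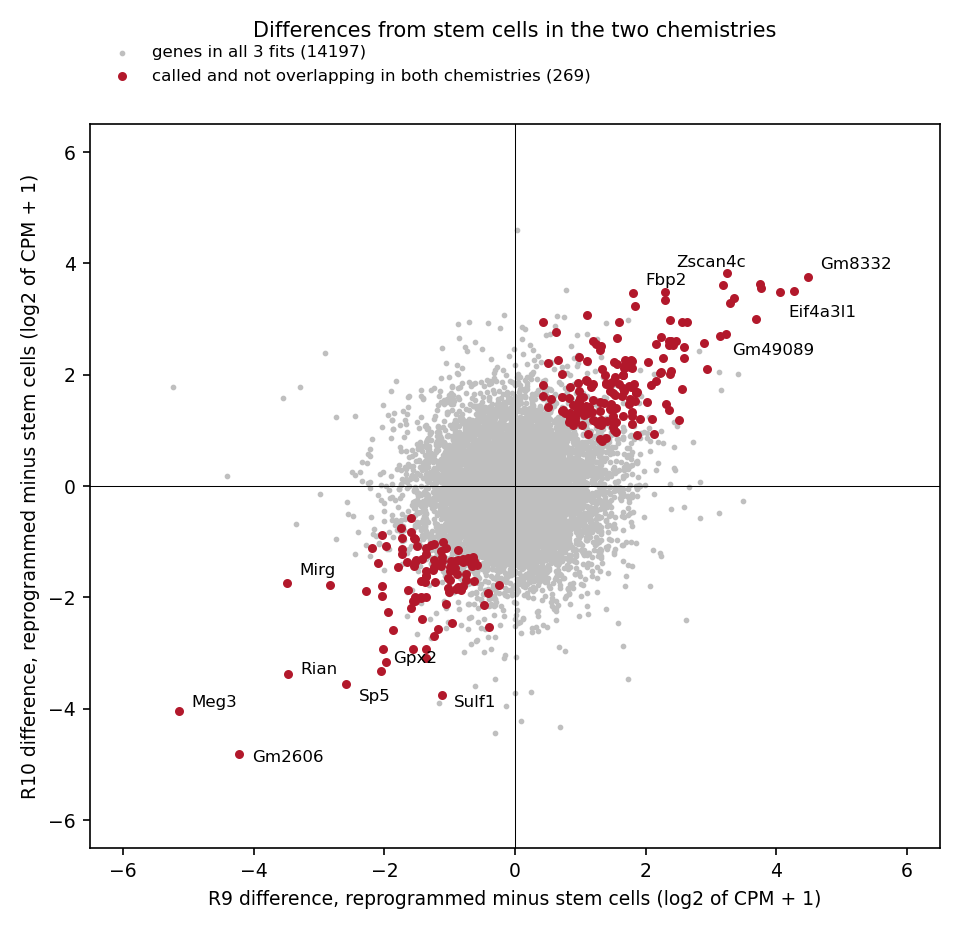
Difference between reprogrammed cells and stem cells in R9 (horizontal) and R10 (vertical), both in log2(CPM + 1), for the 14197 genes tested in all 3 fits. Red points are the 269 concordant genes among them. Genes of the 2-cell type such as Zscan4c lie at the upper right, and Meg3, Rian, Sp5 and Gm2606 at the lower left.

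Genes known from the 2-cell embryo and from the brief 2-cell-like spells of stem cell cultures were higher in reprogrammed cells. The 2-cell-like list had 20 names, of which 11 were in the table and 7 held enough reads to be tested. All 7 passed on the higher side with limma and with edgeR, and 5 of them were concordant (median difference 2.59, beside -0.07 over all genes tested, of which 1.74% were higher). Genes such as Zscan4a and Zscan4e met the minimum level mainly through the reprogrammed libraries, so the count and the median describe the list and support nothing beyond the values of its genes. In R9 alone 3 of 11 tested genes were higher, and in R10 alone limma called 7 and edgeR 6 of 8, beside limma calls in either direction for 0.582% of all genes in R9 and 8.89% in R10. Zscan4c, a zinc finger gene of the 2-cell embryo that acts in telomere maintenance, had 20.8 and 12.9 CPM in R9 OKMS cells of days 14 and 20 and 6.98 CPM in OKS cells of day 20. It was at 0 in both R9 stem cell libraries. In R10 it had 12.3 CPM in OKMS cells and 65.7 CPM in OKS cells, against a lowest, median and highest of 0.373, 1.82 and 2.03 CPM in the 7 stem cell libraries. Every reprogrammed library lay above every stem cell library, and OKS cells were the lowest of the reprogrammed libraries in R9 and the highest in R10. The difference was 3.68 (SE 0.39, limma adjusted p = 9e-06, edgeR adjusted p = 2.8e-06), which is at least 9.62-fold in R9, against a floor of 3 reads over the arm, and 26.2-fold in R10. These are bulk libraries, so more cells with such genes and more RNA per cell cannot be told apart.

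The promoters of 3 of these genes are shown because 2 near-identical Zscan4 copies and an unrelated gene of the group hold a TATA box near the start. They are 300 bases from RefSeq on GRCm38.p6, from 250 before the start to 50 after, and capitals mark the letters TATAAA:
Zscan4c, chr7:11005495-11005794, plus strand: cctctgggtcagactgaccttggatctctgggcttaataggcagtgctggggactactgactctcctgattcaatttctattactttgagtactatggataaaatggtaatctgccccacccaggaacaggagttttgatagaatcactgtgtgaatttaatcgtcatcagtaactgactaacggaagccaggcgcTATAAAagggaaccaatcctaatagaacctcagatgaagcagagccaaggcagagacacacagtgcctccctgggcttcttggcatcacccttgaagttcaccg
Zscan4d, chr7:11166099-11166398, minus strand: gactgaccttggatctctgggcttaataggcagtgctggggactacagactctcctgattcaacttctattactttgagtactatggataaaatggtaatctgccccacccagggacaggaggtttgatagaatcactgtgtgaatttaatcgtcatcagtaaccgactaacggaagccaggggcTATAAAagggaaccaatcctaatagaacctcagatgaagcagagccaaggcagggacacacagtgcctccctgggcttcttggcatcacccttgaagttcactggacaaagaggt
Usp17lb, chr7:104842534-104842833, minus strand: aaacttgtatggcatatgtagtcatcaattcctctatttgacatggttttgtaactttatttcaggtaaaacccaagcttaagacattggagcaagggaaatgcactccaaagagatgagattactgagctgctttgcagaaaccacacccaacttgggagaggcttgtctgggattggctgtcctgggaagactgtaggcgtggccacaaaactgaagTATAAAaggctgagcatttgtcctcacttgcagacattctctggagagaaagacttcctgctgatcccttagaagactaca
The box begins at -54 in Zscan4c, -65 in Zscan4d and -31 in Usp17lb, counted from the RefSeq start. Of the 17 named genes described with this group, 7 had a promoter in the RefSeq table and 4 of these held the box on either strand, the fourth being Gm6803 with its box farther off at -163, beside 13.6% of all 32851 promoters and 6.99% of those of tested genes. Eif4a3l1, Gm21761 and Gm11546 held none. The 7 promoters held 0 to 5 CG pairs, beside a median of 7 in all promoters and of 20 in those of tested genes. A motif of the 2-cell factor Dux, searched on both strands, was in none of the 7 windows and in 0.0335% of all promoters.

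The other Zscan4 copies were higher too. Zscan4d had 20.8, 6.45 and 1.16 CPM in the R9 reprogrammed libraries (OKMS day 14, OKMS day 20, OKS day 20, the order used from here on) against 0 and 0 in O4G and R1. In R10 it had 1.76 CPM in OKMS cells and 39.1 in OKS cells against 0.26 to 2.71 in the stem cells, so the R10 OKMS library overlapped the stem cells (2.59, SE 0.57, limma adjusted p = 0.013). Zscan4a was higher by 2.54, Zscan4e by 1.98 and the gene listed as Zscan4-ps2 by 2.78, and these were concordant. Like Zscan4a and Zscan4e, Zscan4-ps2 met the minimum level mainly through the reprogrammed libraries. The Zscan4 copies are nearly identical and how reads that fit several of them were assigned is not given in the sources used here, so the values of single copies are uncertain.

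Eif4a3l1, a relative of the RNA helicase Eif4a3 known from 2-cell-like cells, was another concordant gene of the list. It had 41.5, 38.7 and 18.6 CPM in R9 reprogrammed cells against 0.947 and 0.931 in stem cells. In R10 it had 49.4 CPM in OKMS and 124 CPM in OKS cells against a lowest, median and highest of 2.2, 7.25 and 12.0 in the stem cells. The groups did not overlap in either chemistry (3.73, SE 0.35, limma adjusted p = 2.9e-06, edgeR adjusted p = 1.6e-06). Tmem92, a membrane protein gene of the same list, rested on 5 and 6 reads in the reprogrammed arms of R9 and R10, tied with the stem cells at 0 in 1 R9 library and lay above them in R10 (1.76, SE 0.40, limma adjusted p = 0.018). Its neighbour Gm11546 on chromosome 11 was concordant, at 6.11, 8.6 and 12.8 CPM against 0 and 0 in R9 and 5.29 and 26.6 against 0 to 0.58 in R10. No stem cell library held 1 CPM of Gm11546, so it was tested only through the reprogrammed libraries.

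A cluster of related genes on chromosome 12, between 87514310 (Gm8300) and 88324031 (Gm5039), was also higher. This window was set after the values were seen, by genes named for their size of difference. It held 9 genes of the table, of which 8 were tested and 7 passed, beside 1.74% of all genes tested that were higher. The 7 were Gm8300, Gm8332, Gm5662, Gm6803, Gm2022, Gm5039 and Gm2016. Some of them, such as Gm2022, met the minimum level for testing through the reprogrammed libraries, so this count is a description only. The tested gene that did not pass was Gm1995 (1.28, limma adjusted p = 0.11). Gm8332 had the largest difference, with 52.5, 38.7 and 37.2 CPM against 0.947 and 0.931 in R9 and 19.4 and 141 against 1.87 to 4.48 in R10 (4.07, SE 0.37, limma adjusted p = 2.9e-06). Gm5662 had 31.8, 29.0 and 18.6 CPM against 0.947 and 0, and 14.1 and 61.0 against 0.373 to 5.38 (3.84, SE 0.41, limma adjusted p = 1.3e-05). Gm8300, the member in the fixed list, had 13.4, 12.9 and 11.6 CPM against 0 and 0, and 10.6 and 53.2 against 0.656 to 1.94 (3.65, SE 0.35). The other 4 members were higher by 2.95 to 3.57. These genes are copies of each other too, and their single values carry the same uncertainty as those of Zscan4. The further genes, Gm21761 on chromosome 13 (3.43, SE 0.38) and Usp17lb, a ubiquitin protease gene on chromosome 7 (2.89, SE 0.35), followed the same pattern. Both met the minimum level mainly through the reprogrammed libraries.

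The level of the group varied among reprogrammed libraries, and the list total held to the sides. The 11 list genes in the table summed to 132, 81.7 and 50 CPM in R9 reprogrammed cells against 1.89 and 1.86 in stem cells, and to 82.9 and 339 CPM against 4.48 to 23.6 in R10. Within R10 the highest stem cell total was in an R1 clone 3 library, and the lowest in the R1 library without an n number. The count of 7 fell to 5 without the R10 OKS library, to 4 with OKMS cells alone and to 3 against stem cells of line O4G alone, and was 9 with OKS cells alone. The late cells in FBS-LIF with doxycycline (days 14, 18 and 20, 6 libraries) had 0 to 9.85 CPM of Zscan4c and 0.827 to 65.3 of Eif4a3l1, and the 8 progenitor libraries had 0 of Zscan4c and 0 to 1.35 of Eif4a3l1. The list total in these late cells was 54.9 and 150 CPM in R9 OKMS cells of days 14 and 20, the latter above every R9 reprogrammed library in 2i-LIF. It was 3.31 and 5.03 CPM in R9 OKS cells of the same days, and 19.3 and 20.5 CPM in R10 OKMS and OKS cells.

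**Figure D3:**
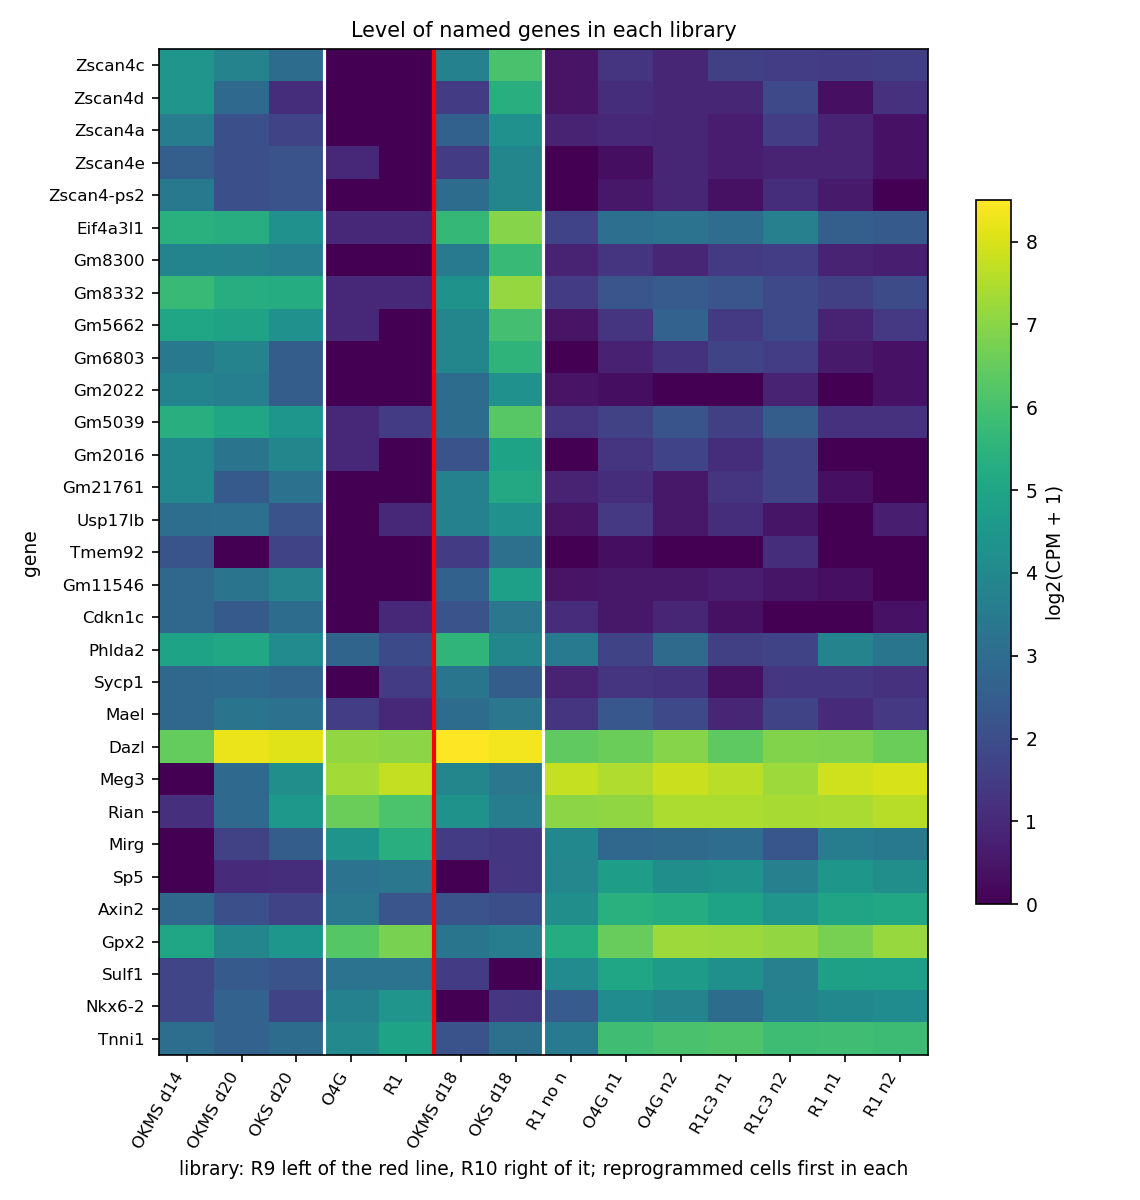
Level of 31 named genes in the 14 libraries, as log2(CPM + 1). The red line parts R9 from R10, and white lines part reprogrammed cells (left in each chemistry) from stem cells. Zscan4c is at 0 in both R9 stem cell libraries, and Meg3 is at most 17.5 CPM in any reprogrammed library.

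Transcripts of the maternal strand of the Dlk1-Dio3 locus on chromosome 12 were lower in reprogrammed cells. In this imprinted locus the maternal copy makes the long non-coding RNAs Meg3, Rian and Mirg, and the paternal copy makes the proteins Dlk1, Rtl1 and Dio3. Meg3 (chr12:109540686-109571726, plus strand) had 0, 6.45 and 17.5 CPM in R9 reprogrammed cells against 157 CPM in O4G and 210 CPM in R1. In R10 it had 14.1 CPM in OKMS and 9.39 CPM in OKS cells against a lowest, median and highest of 153, 217 and 251 CPM. No reprogrammed library came near a stem cell library, and the OKMS library of day 14 was listed at 0 (-4.53, SE 0.45, limma adjusted p = 6.2e-06, edgeR adjusted p = 1.1e-07). The mean was 23.1-fold lower in R9 and 17.8-fold lower in R10.

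The Meg3 promoter is shown because CG pairs around the start of this gene are known to carry methylation on the paternal copy. Capitals mark its 13 CG pairs in 300 bases of RefSeq on GRCm38.p6, from 250 before the start to 50 after:
Meg3, chr12:109540746-109541045, plus strand: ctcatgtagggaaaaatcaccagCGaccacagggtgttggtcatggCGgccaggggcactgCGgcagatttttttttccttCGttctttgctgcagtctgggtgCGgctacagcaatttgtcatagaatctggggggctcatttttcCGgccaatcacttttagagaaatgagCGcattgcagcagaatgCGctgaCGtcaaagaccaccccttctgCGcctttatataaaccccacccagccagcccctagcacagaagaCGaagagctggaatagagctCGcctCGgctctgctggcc
A second RefSeq window of Meg3, chr12:109545148-109545447, holds 1 CG pair and is not shown. The files hold no methylation values, so the sequence shown is background to the expression values only.

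Rian, which hosts small nucleolar RNAs, had 1.22, 6.45 and 22.1 CPM in R9 reprogrammed cells against 94.7 and 67.0 in stem cells, and 19.4 and 10.9 CPM against 129 to 193 in R10. It was concordant (-3.42, SE 0.36, limma adjusted p = 9e-06, edgeR adjusted p = 2.8e-06). Mirg, which hosts microRNAs at the far end of the locus, had 0, 2.15 and 4.66 CPM against 19.9 and 40.0, and 1.76 and 1.56 against 3.87 to 14.6 (-2.51, SE 0.44, limma adjusted p = 0.0022, edgeR adjusted p = 0.0024). In R9 all 3 RNAs were lowest in OKMS cells of day 14 and highest in OKS cells of day 20, each with 1 library. The protein-coding members did not pass in the combined fit. Dlk1, a Notch ligand relative, had 0 to 1.16 CPM against 0.931 and 3.79 in R9 and 7.05 and 7.82 against 0.236 to 2.99 in R10 (0.77, limma adjusted p = 0.39), and in R10 alone limma called it higher (2.04, limma adjusted p = 0.015) and edgeR did not. Dio3, which inactivates thyroid hormone, had 3.66 to 10.5 CPM against 2.79 and 5.68, and 7.05 and 10.9 against 1.88 to 7.75 (0.98, limma adjusted p = 0.11). Of the 5 list genes tested, 3 were thus lower and 0 higher, beside 1.47% of all genes lower, with a median of -2.51. Against O4G stem cells alone Mirg no longer passed, and without the R9 OKMS library of day 14 Dio3 passed on the higher side.

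Progenitors and cells kept in FBS-LIF with doxycycline to late days also had little of these RNAs, with higher values at early days in R10. Meg3 was at 0 to 3.51 CPM in the 8 progenitor libraries and at 0.827 to 7.39 CPM in the 6 late libraries in FBS-LIF with doxycycline, and Rian at 0 to 1.34 and 0 to 5.94 CPM. At days 2 to 10 in FBS-LIF with doxycycline Meg3 was at 0 to 2.83 CPM in R9 and at 0 to 75.9 CPM in R10. These libraries were OKMS and OKS cells and, at day 2, also wild-type cells without factors. The highest value in each chemistry was that of a wild-type library of day 2. R10 OKS cells at day 6 had 67.0 CPM, above every reprogrammed library in 2i-LIF.

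Of 28 other imprinted genes tested, 3 were higher and 1 lower, beside 1.74% higher and 1.47% lower of all genes tested, with a median of 0.03. In R10 alone limma called 3 higher and 3 lower of 30, beside 8.89% of all genes in either direction, and edgeR 1 each way. Cdkn1c, a maternally expressed brake on the cell cycle, had 6.11, 4.3 and 6.98 CPM against 0 and 0.931 in R9 and 3.53 and 9.39 against 0 to 1.12 in R10 (2.29, SE 0.33, limma adjusted p = 0.00049). It met the minimum level mainly through the reprogrammed libraries, so its call is a description only. Its neighbour Phlda2, which restrains placental growth, had 29.3, 33.3 and 16.3 CPM against 5.68 and 2.79, and 45.8 and 14.1 against 2.03 to 13.0 (2.20, SE 0.43, limma adjusted p = 0.005). Both lie in one imprinted domain of chromosome 7, Cdkn1c at chr7:143458337-143461052 and Phlda2 at chr7:143501548-143502987, and both were concordant. Gnas, which encodes a G protein subunit, was concordant at 263, 253 and 241 CPM against 183 and 124, and 82.9 and 73.5 against 22.1 to 38.4 (1.09, SE 0.18, limma adjusted p = 0.0015). Plagl1, a zinc finger gene expressed from the paternal copy, overlapped in R9 (9.31 to 17.1 CPM against 14.0 and 16.1) and was lower in R10, at 1.76 and 4.69 CPM against 9.71 to 36.1 (-1.66, limma adjusted p = 0.022, edgeR adjusted p = 0.17). Phlda2 and Cdkn1c were at 8.27 to 238 and 11.6 to 98.5 CPM in the late cells in FBS-LIF with doxycycline. With reads thinned to the shallowest library, none of the 3 higher genes passed.

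**Figure D4:**
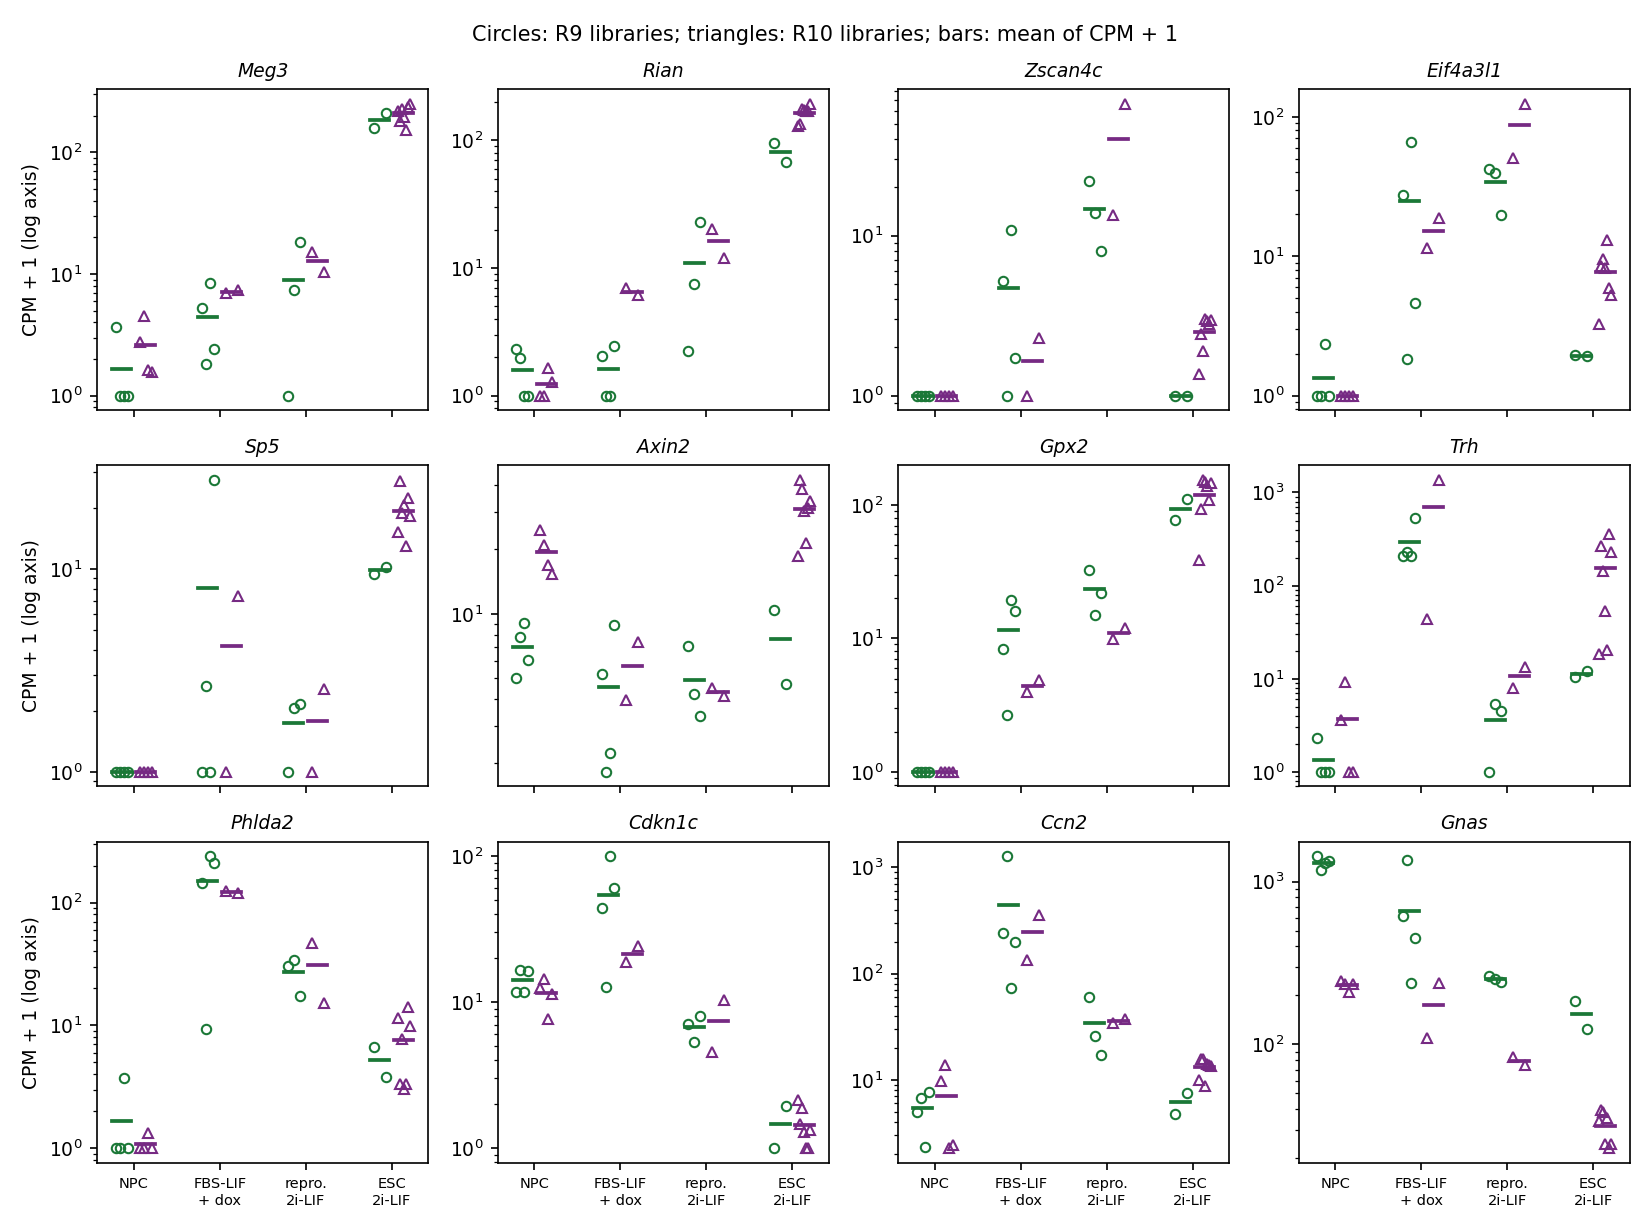
Level of 12 named genes in progenitors (NPC), late cells in FBS-LIF with doxycycline, reprogrammed cells in 2i-LIF and stem cells in 2i-LIF, as CPM + 1 on a log axis. Each symbol is a library, circles R9 and triangles R10, and bars are means. Meg3 and Rian are highest in the stem cells, and Cdkn1c and Ccn2 in reprogrammed cells lie below every late FBS-LIF library and above every stem cell library of their chemistry.

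Among target genes of the Wnt pathway, Sp5 and Axin2 were lower in reprogrammed cells. Beta-catenin held up by CHIR-99021 acts with TCF/LEF factors, and Sp5 and Axin2 are direct and general readouts of this. Sp5, a zinc finger transcription factor, had 0, 1.07 and 1.16 CPM in R9 reprogrammed cells against 8.52 and 9.31 in stem cells. In R10 it had 0 CPM in OKMS and 1.56 CPM in OKS cells against a lowest, median and highest of 12.0, 17.9 and 26.1. The groups were far apart in both chemistries, although the reprogrammed arms held only 2 reads in R9 and 1 in R10 (-3.14, SE 0.33, limma adjusted p = 9e-06, edgeR adjusted p = 0.00029). Sp5 met the minimum level mainly through the stem cell libraries. The Sp5 promoter is shown for its TCF/LEF core, the letters CTTTGAT searched on both strands, which capitals mark in 300 bases of RefSeq on GRCm38.p6:
Sp5, chr2:70474673-70474972, plus strand: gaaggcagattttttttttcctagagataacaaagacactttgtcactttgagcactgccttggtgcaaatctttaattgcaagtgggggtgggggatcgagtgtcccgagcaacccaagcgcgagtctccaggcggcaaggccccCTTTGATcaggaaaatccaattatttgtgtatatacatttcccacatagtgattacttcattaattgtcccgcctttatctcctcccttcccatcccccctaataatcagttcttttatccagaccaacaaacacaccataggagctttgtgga
The core begins at -104 from the RefSeq start, and 3.73% of all promoters and 2.51% of those of tested genes hold one. RefSeq windows were available for 9 of the 14 tested Wnt list genes, with 14 promoters among them. The core is in 1 of these promoters, and that of Axin2 holds none.

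Axin2, a negative regulator in the beta-catenin destruction complex, had 6.11, 3.22 and 2.33 CPM against 9.47 and 3.72 in R9, where the groups overlapped, and 3.53 and 3.13 CPM against 17.6 to 41.2 in R10 (-1.83, SE 0.37, limma adjusted p = 0.008, edgeR adjusted p = 0.026). Of 14 targets tested, 2 were lower and 0 higher in both chemistries together, beside 1.47% of all genes lower, with a median of -0.95. In R10 alone limma called 6 lower, beside 8.89% of all genes in either direction, and edgeR 3, with a median of -1.43, and in R9 alone 0 passed, with a median of -0.46. Lef1, a TCF/LEF factor that is its own target, was at 0 in both R10 reprogrammed libraries against 2.99 to 33.9 CPM in the stem cells, but was also at 0 and 0.931 CPM in R9 stem cells (-1.98, limma adjusted p = 0.08). The T-box gene T was at 0 in all 5 reprogrammed libraries against 0 and 0.931 CPM in R9 and 0.373 to 15.1 CPM in R10 stem cells (-1.71, limma adjusted p = 0.062). Tcf7 was at 24.4 to 38.7 CPM against 40.0 and 50.2, and at 8.82 and 12.5 against 24.6 to 34.3, a difference of -0.998 that fell just short of the size asked for (limma adjusted p = 0.0091). The count of 2 became 5 without the R1 library that has no n number or without the R9 O4G library, 4 without the R9 OKMS library of day 14, and 1 without the R10 OKS library or with OKMS cells alone. With a pseudocount of 0.25 it was 4.

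Some germline genes, many of which are held silent by DNA methylation in other cells, were higher. Of 23 tested, 4 were higher and 0 lower, beside 1.74% of all genes higher, with a median of 0.57, and edgeR called 3. In R9 alone 0 passed, with a median of 0.09, and in R10 alone limma called 7 higher and 1 lower, beside 8.89% of all genes in either direction, and edgeR 3 higher, with a median of 1.05. Sycp1, a protein of the synaptonemal complex of meiosis, was concordant at 6.11, 6.45 and 5.82 CPM against 0 and 1.86 in R9 and 8.82 and 4.69 against 0.29 to 1.56 in R10 (1.93, SE 0.33, limma adjusted p = 0.0017). Mael, a protein of transposon silencing in the germline, was concordant at 6.11, 8.6 and 8.15 CPM against 1.89 and 0.931, and 7.05 and 9.39 against 0.87 to 4.00 (1.76, SE 0.31, limma adjusted p = 0.0025). Dazl, an RNA-binding protein of germ cells, had 306 and 268 CPM at day 20 but 89.2 CPM at day 14 in R9, against 138 and 130 in stem cells, and 354 and 327 against 82.4 to 123 in R10 (1.22, SE 0.26, limma adjusted p = 0.01). Only the day 14 library went against the direction. Sycp3, a partner of Sycp1, overlapped in R9 at 14.7 to 21.0 CPM against 13.3 and 22.3, and had 35.3 and 32.8 CPM against 3.53 to 9.34 in R10 (1.39, limma adjusted p = 0.04, edgeR adjusted p = 0.061). Against O4G stem cells alone none of these 4 passed and Stra8, a gene of entry into meiosis, was the 1 that did. In all stem cells it was at 2.33 (limma adjusted p = 0.057), with 1.34 to 90.7 CPM in the R10 stem cells, highest in the R1 library without an n number. The count was 2 without the R10 OKS library and 7 after centring each chromosome.

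Of 30 naive pluripotency genes tested, 1 was higher and 1 lower, beside 3.21% of all genes tested, with a median of -0.18. In R9 alone limma called 1 higher, beside 0.582% of all genes. In R10 alone limma called 1 higher and 2 lower, beside 8.89% of all genes, and edgeR 2 lower. An unadjusted p under 0.05 was found for 14 of the 30, beside 3104 of all 14932. Pou5f1 had 1344, 1302 and 1077 CPM against 1309 and 1402 in R9 and 896 and 953 against 856 to 1109 in R10 (-0.11, SE 0.11, limma adjusted p = 0.6). Sox2 (-0.48, limma adjusted p = 0.15) and Klf4 (-0.11, limma adjusted p = 0.81) did not pass either. Myc was scarce, at 1.22, 4.3 and 2.33 CPM against 0 and 0.931, and 3.53 and 1.56 against 0.29 to 11.8 (0.17, limma adjusted p = 0.9). Reads from a cassette and from the endogenous gene cannot be told apart in these 4. Nanog, a core pluripotency factor, lay above the stem cells in every reprogrammed library, at 1008 to 1247 CPM against 689 and 878 in R9 and 1180 and 1361 against 537 to 1105 in R10, and did not pass (0.52, limma adjusted p = 0.062). Klf5, a factor supporting self-renewal, was separated on the lower side in both chemistries, at 142 to 215 CPM against 249 and 275 and at 84.5 and 98.7 against 135 to 207, with a difference of -0.81 that is below the size asked for (limma adjusted p = 0.0017). Dppa2, which opens 2-cell genes in stem cells, was higher by 1.31 (SE 0.28, limma adjusted p = 0.0099), with 120, 96.7 and 102 CPM against 43.6 and 25.1, and 97.0 and 308 against 47.6 to 127, where the R10 OKMS library overlapped. Lin28a, an RNA-binding protein that blocks let-7 and marks cells leaving the naive state, was lower by 2.03 (limma adjusted p = 0.028, edgeR adjusted p = 0.23), and its libraries overlapped in R9.

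Other than the Wnt targets given above, lists linked to the medium gave at most 1 call in each direction in the combined fit, beside 3.21% of all genes. In the separate limma fits, which called 0.582% of all genes in R9 and 8.89% in R10, these other lists gave at most 2 in each direction. Of 10 genes associated with culture in 2i, Crygd, a crystallin, was concordant on the higher side at 33.0, 47.3 and 52.4 CPM against 17.0 and 7.45, and 26.4 and 43.8 against 5.25 to 24.3 (1.76, SE 0.38, limma adjusted p = 0.011). Trh, which encodes thyrotropin-releasing hormone, was concordant on the lower side at 0, 4.3 and 3.49 CPM against 9.47 and 11.2, and 7.05 and 12.5 against 17.6 to 356, and edgeR did not call it (-2.64, SE 0.67, limma adjusted p = 0.029, edgeR adjusted p = 0.1). Late cells in FBS-LIF with doxycycline had 208 to 527 CPM of Trh in R9 and 43.0 and 1365 CPM in R10. These values lay above every reprogrammed library in 2i-LIF, so Trh was not particular to 2i in these libraries. Of 16 ERK pathway targets tested 0 passed, with a median of 0.02, and of 12 formative and primed genes 0 passed, with a median of -0.01. Otx2, a factor of the formative state, lay below the stem cells in R9 (6.11 to 22.6 CPM against 40.7 and 56.8), while in R10 the OKMS library lay above them and the OKS library among them (31.7 and 17.2 against 3.28 to 22.3), with 0.14 in both together (limma adjusted p = 0.92). Of 10 LIF and STAT3 genes, Il6st, the shared receptor chain gp130, was lower by 1.03 (limma adjusted p = 0.043, edgeR adjusted p = 0.19), and this call was lost under most alternatives. The DNA methylation machinery (14 tested, median -0.31), the Nodal pathway (12, median -0.10) and BMP and Id genes (9, median -0.16) had 0 genes past limma's test in the combined fit. In the separate limma fits 2 Nodal genes were lower in R9 and 1 higher in R10, 2 DNA methylation and 2 formative genes were lower in R10, and 1 formative and 1 ERK gene were higher in R10, where edgeR called 0 in these lists. Of the genes associated with culture in 2i, limma called 1 higher and 1 lower in R9, and 2 higher and 1 lower in R10. It called 1 LIF and STAT3 gene lower in R10, and edgeR called 0 in these 2 lists there. In the combined fit, at an unadjusted p under 0.05 there were 2 ERK, 4 formative, 4 DNA methylation, 3 Nodal and 2 BMP genes, and edgeR called 0 in each of these lists. Dnmt3b was at 12.2 to 26.8 CPM against 13.3 and 24.2, and at 24.7 and 31.3 against 21.3 to 43.6.

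Lists of the cells of origin and of other lineages are read beside the 3.21% of all genes that passed. Of 14 neural progenitor genes tested, only Ccnd2, a cyclin abundant in the progenitors at 489 to 1529 CPM, was higher, at 1.22, 2.15 and 9.31 CPM against 0.947 and 0.931, and 15.9 and 21.9 against 0 to 9.71 (2.21, SE 0.54, limma adjusted p = 0.024, edgeR adjusted p = 0.056). Fabp7, a fatty acid carrier of radial glia, had 4.89, 4.3 and 37.2 CPM against 0 and 0, and 0 and 39.1 against 0 to 21.7 (2.62, limma adjusted p = 0.088), so the OKS libraries carried most of it. Beside these, the summed neural progenitor markers were at 22, 20.4 and 61.7 CPM against 18 and 23.3 in R9 and at 1.76 and 68.8 against 6.49 to 47.1 in R10, highest in the OKS libraries, and their part in the result was not tested. Olig2 was at 0 in all 14 libraries. Of 12 mesenchymal genes tested, Ccn2 and Ly6a were higher and 0 lower, with a median of 0.35. Ccn2, a matrix protein and YAP target, was concordant at 58.6, 24.7 and 16.3 CPM against 3.79 and 6.52, and 33.5 and 36.0 against 7.83 to 14.8 (1.84, SE 0.29, limma adjusted p = 0.001). Ly6a (Sca-1), a surface protein, was concordant at 247, 162 and 87.3 CPM against 48.3 and 59.6, and 169 and 150 against 32.5 to 114 (1.42, SE 0.28, limma adjusted p = 0.0061). Beside these, the summed mesenchymal markers were at 15.0 to 24.4 CPM against 7.57 and 9.31 in R9 and at 17.6 and 36.0 against 4.71 to 16.1 in R10, and their part in the result was not tested. The late cells in FBS-LIF with doxycycline had 71.4 to 1274 CPM of Ccn2. Of 8 extraembryonic endoderm genes, the laminin chain Lamb1 was higher by 1.23 (SE 0.26, limma adjusted p = 0.0098) and concordant, while the chain Lama1 was lower (-1.26, limma adjusted p = 0.026, edgeR adjusted p = 0.14). Beside these, the summed extraembryonic endoderm markers were at 4.30 to 9.31 CPM against 2.84 and 7.45 in R9 and at 14.1 and 6.26 against 0.747 to 10.5 in R10. Epithelial (11 tested, median 0.09) and trophoblast genes (7, median -0.27) had 0 past limma's test or edgeR's in the combined fit, with 1 and 4 at an unadjusted p under 0.05. In R10 alone, where limma called 8.89% of all genes, it called 1 epithelial gene higher and 1 lower, 1 trophoblast gene lower, and 4 mesenchymal genes higher and 1 lower, of which list edgeR called 2 higher.

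Metabolic and housekeeping lists gave at most 1 gene each, beside 3.21% of all genes in the combined fit, so that 1 gene in lists of this size is near the background. In the separate fits limma called 0.582% of all genes in R9 and 8.89% in R10. Phgdh, the first enzyme of serine synthesis, was higher by 1.07 (SE 0.24, limma adjusted p = 0.014), at 181, 271 and 145 CPM against 147 and 139 in R9, where one library overlapped, and 263 and 138 against 47.5 to 89.3 in R10. It was the only one of 22 serine and threonine metabolism genes to pass in the combined fit, while in R10 alone limma called 5 higher and edgeR 3 higher and 1 lower. Slc2a1, the glucose transporter GLUT1, was the only one of 25 glycolysis genes to pass in the combined fit, at 50.1, 51.6 and 30.3 CPM against 73.9 and 109, and 26.4 and 37.5 against 40.3 to 111 (-1.09, SE 0.26, limma adjusted p = 0.02). It no longer passed without the R9 OKS library, the R9 R1 library or either R10 reprogrammed library (-0.98 to -1.18, limma adjusted p = 0.04 to 0.075). In R9 alone limma called 2 glycolysis genes lower. Of 19 genes of the p53 pathway and cell cycle inhibitors, Cdkn1c alone passed in the combined fit. In this list limma called 1 higher in R9 alone, and 2 higher and 1 lower in R10 alone, where edgeR called 0. Sterol synthesis (28 tested, median 0.28), interferon and MHC genes (12, median -0.02), metallothioneins (3, median -0.28), polyadenylated histone transcripts (7, median -0.03), mitochondrially encoded genes (9, median 0.43) and the introduced factors (4, median -0.11) had 0 past limma's test or edgeR's in the combined fit. In the separate limma fits 2 interferon and MHC genes and 1 histone gene were lower and 1 sterol gene higher in R10, and 1 mitochondrial gene was higher in R9. In the combined fit, at an unadjusted p under 0.05 there were 12 sterol synthesis, 4 interferon, 1 metallothionein, 1 histone, 0 mitochondrial and 1 introduced factor genes. The share of the CPM in mitochondrial genes was 0.355% to 0.415% in R9 reprogrammed cells, against 0.310% and 0.344% in R9 stem cells. In R10 it was 1.56% and 1.96%, against 1.81% to 2.35% in the numbered stem cell libraries and 0.124% in the R1 library without an n number.

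Of the named genes that passed, 17 did not pass in the combined fit once some 1 library was left out, with Slc2a1 among them. Without the R10 OKS library, 14 were lost: Trh, Dppa2, Crygd, Ccnd2, Lama1, Zscan4d, Tmem92, Sycp3, Dazl, Plagl1, Axin2, Il6st, Slc2a1 and Phgdh, with limma adjusted p from 0.051 (Slc2a1) to 0.21 (Sycp3). Without the R10 OKMS library, 10 were lost: Trh, Lin28a, Ccnd2, Sycp3, Dazl, Plagl1, Il6st, Slc2a1 and Phgdh, with limma adjusted p from 0.059 (Dazl) to 0.18 (Sycp3), and Gnas, which missed only the size asked for (0.97, limma adjusted p = 0.011). Lin28a was also lost without the R9 OKMS library of day 20 (limma adjusted p = 0.051) or the R9 R1 library (limma adjusted p = 0.057). Lamb1 missed the size without the R9 O4G library (0.99, limma adjusted p = 0.029). Sycp3 was lost without either R10 O4G library, the first R1 clone 3 library or the second numbered R1 library (limma adjusted p = 0.06 to 0.061). Il6st was lost without the R9 OKMS library of day 20, the R9 R1 library or any of 6 of the 7 R10 stem cell libraries, with limma adjusted p up to 0.078. Against stem cells of line O4G alone, a fit with fewer stem cell libraries, many of the genes above were lost too, Gnas, Phgdh and Lamb1 among them. Named genes lost there but in no fit without 1 library were Ccn2, Ly6a, Lrrc31, Cnpy1, Ccdc141, Efhc2, Nmi and Gm45774. The same held for Zscan4a, Zscan4e, Gm2016, Sycp1, Mael, Mirg and novelGene_23414. Each of these genes kept its direction.

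**Figure D5:**
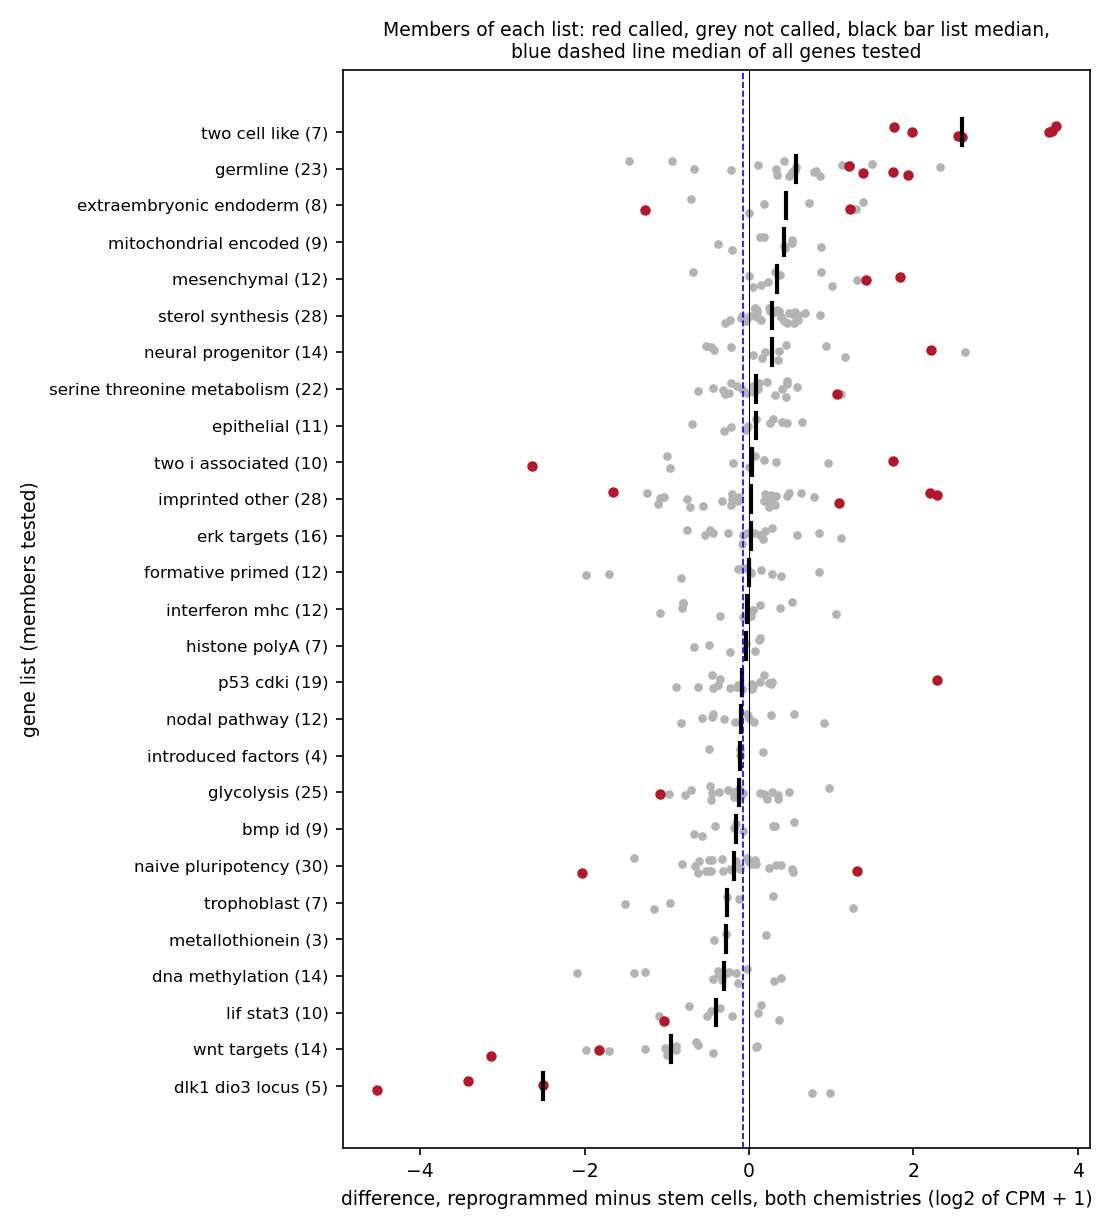
Difference between reprogrammed cells and stem cells in both chemistries for every tested member of each gene list, in log2(CPM + 1), with the number tested in brackets. Red points passed the test, black bars are list medians and the dashed line is the median of all genes tested at -0.07. The tested members of the 2-cell-like list have a median of 2.59, several of them tested mainly through the reprogrammed libraries, and those of the Dlk1-Dio3 list have a median of -2.51.

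Outside the lists, the largest lower difference was that of Gm2606 on chromosome 15, which the annotation classes as neither protein-coding nor long non-coding. It was listed at 0 in all 5 reprogrammed libraries, against 15.1 and 20.5 CPM in R9 stem cells and 22.1 to 32.1 CPM in R10 stem cells (-4.56, SE 0.25, limma adjusted p = 5.9e-10, edgeR adjusted p = 2.5e-06). That is at least 15.5-fold lower in R9 and at least 11-fold lower in R10, against a floor of 3 reads over the arm, while the authors' transcript table holds it at no more than 1.87 TPM in any of the 9 stem cell libraries. Gm2606 met the minimum level for testing only through the stem cell libraries, so its call is a description only. The progenitor libraries had 6.75 to 34.0 CPM. Among the late cells in FBS-LIF with doxycycline, the R9 OKMS libraries of days 14 and 20 had 29.5 and 25.9 CPM, and the R9 OKS and both R10 libraries had 0. The OKMS libraries of day 2 in FBS-LIF were also at 0 in both chemistries, so Gm2606 was present or absent between libraries of like cells. Gpx2, a glutathione peroxidase that removes peroxides, had 31.8, 14.0 and 21.0 CPM against 75.7 and 109, and 8.82 and 10.9 against 37.3 to 153 (-2.77, SE 0.32, limma adjusted p = 3e-05, edgeR adjusted p = 0.00052). Its means were 4.15-fold lower in R9 and 11.8-fold lower in R10, and the lowest stem cell value was that of the R1 library without an n number. Sulf1, an enzyme that trims heparan sulfate, had 2.44, 4.3 and 3.49 CPM against 8.52 and 8.38, and 1.76 and 0 against 12.0 to 32.0 (-2.61, SE 0.42, limma adjusted p = 0.0011). Nkx6-2, a homeobox gene, had 2.44, 5.37 and 2.33 CPM against 12.3 and 20.5, and 0 and 1.56 against 4.48 to 16.7 (-2.53, SE 0.37, limma adjusted p = 0.00051). Tnni1, the slow skeletal troponin I, had 7.33, 5.37 and 6.98 CPM against 15.1 and 29.8, and 3.53 and 7.82 against 10.1 to 70.8 (-2.34, SE 0.40, limma adjusted p = 0.002). Lrrc31, Cnpy1, Ccdc141, Efhc2 and Nmi followed, with differences from -2.34 to -2.12, and all were concordant. Nmi met the minimum level mainly through the stem cell libraries.

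On the higher side, Fbp2, the muscle form of the gluconeogenesis enzyme fructose bisphosphatase, was among the 15 largest concordant differences with a symbol. It had 85.5, 137 and 122 CPM against 30.3 and 32.6, and 54.7 and 158 against 2.83 to 30.6 (2.74, SE 0.48, limma adjusted p = 0.0023, edgeR adjusted p = 0.0022), with means 3.65-fold and 10.1-fold higher. A pair of neighbours on chromosome 15 were both higher: Gm49089 (chr15:33831448-33836314) had 23.2, 22.6 and 41.9 CPM against 2.84 and 1.86, and 201 and 419 against 12.7 to 113 (2.88, SE 0.42, limma adjusted p = 0.0005). The unannotated gene novelGene_13849, which starts just downstream on the same strand, had 73.3, 107 and 126 CPM against 15.1 and 30.7, and 35.3 and 84.5 against 1.56 to 32.5 (2.38, SE 0.44, limma adjusted p = 0.0038). Progenitors had 0 of Gm49089 and at most 1.34 CPM of its neighbour. Other unannotated genes were scarce: novelGene_12196, novelGene_Smc5_AS, novelGene_Gm28047_AS and novelGene_23414 were concordant and higher by 2.49 to 2.96, each on 10 to 27 reads per reprogrammed arm. All but novelGene_Gm28047_AS met the minimum level mainly through the reprogrammed libraries. Those named AS lie antisense to a known gene, and whether counting used strand is not given in the sources used here. On the lower side, novelGene_31357 was at 0 in all 5 reprogrammed libraries and the long non-coding RNA Gm45774 at 0 to 1.16 CPM. In stem cells they were at 0.931 to 5.82 and 2.30 to 3.87 CPM, so both were near the floor. Gm45774 met the minimum level mainly through the stem cell libraries, and novelGene_31357 only through them. The call of novelGene_31357 was lost with edgeR, DESeq2 or thinned reads. That of Gm45774 was lost with DESeq2, thinned reads or O4G stem cells alone.

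The authors' transcript table, in TPM made from the same reads, gave the same direction for most of these genes. Of the 61 named genes that passed, 58 kept the direction in R9, 58 in R10 and 55 in both. The exceptions were novelGene_13849, Lamb1 and Il6st in R10, and Gm45774, Sycp3 and Axin2 in R9. Summed over transcripts, Meg3 averaged 5.09 TPM in R9 reprogrammed cells against 166 TPM in stem cells, and 8.4 against 126 TPM in R10. Zscan4c averaged 9.35 TPM against 0, and 23.8 against 0.666. A transcript of 4 exons and 2309 bases that matches the splicing of an annotated Zscan4c transcript made up 42.2% and 39.1% of the gene in reprogrammed cells. Sp5 had a single transcript of 1940 bases, at 0.441 against 9.76 TPM and 0.731 against 14.2 TPM. For Gm2606 and Gm49089 the levels of the 2 tables lay far apart. The single transcript of Gm2606 averaged 0.935 TPM in R9 stem cells, with 0 in one of the 2 libraries, and 0.535 TPM in R10 stem cells, against the 15.1 to 32.1 CPM of the gene table, and Gm49089 averaged 7.62 TPM in R10 reprogrammed cells against 201 and 419 CPM. The size of both differences therefore rests on the gene table. In R10 novelGene_13849 was at 0 TPM in both reprogrammed libraries against a mean of 12.3 TPM in stem cells, the reverse of its gene values. Lamb1 was at 0 TPM in both R10 reprogrammed libraries against a mean of 0.910 TPM in stem cells. The R10 direction of these genes rests on the gene table too. Gpx2 had a single transcript, at 39.3 against 173 TPM and 15.1 against 161 TPM.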

How the data were processed

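RNA was read by nanopore sequencing in 45 libraries, and 14 of them entered the comparison. Reads were mapped with minimap2 2.24-r1122 to mm10, per the submitters' processing notes. The authors deposited gene values in CPM and transcript values in TPM, and other steps, such as the counter and its use of strand, are not given in the sources used here. All CPM values were whole multiples of 1 read within a tolerance of 0.02 (100% of values), which gave the reads and depth of each library. Of 23575 rows, 20 whose names had turned into numbers were left out. These rows were at 0 in all 9 stem cell libraries and summed to 981 to 1248 CPM in the 5 reprogrammed libraries, so the columns of the 2 arms were filled differently there, for a reason that was not tested. A further 13 columns matched no sample and were not used.

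log2(CPM + 1) was fitted with limma 3.58.1 (limma-trend, R 4.3.3) on genes with at least 1 CPM in as many libraries as the smaller arm holds. Through depth, 1 read lay above 1 CPM in every reprogrammed library and below it in every stem cell library. A scarce gene could therefore enter the test more easily through the reprogrammed libraries than through the stem cell libraries. The combined fit had chemistry and cell type as terms, and R9, R10 and their difference (interaction) were fitted too. P-values were Benjamini-Hochberg adjusted over all genes of a fit. The fit was tested on simulated data, where limma called more unchanged genes than edgeR in the combined fit and far more in R10, whose arms differ most in depth. The quasi-likelihood test of edgeR 4.0.16 and DESeq2 1.42.0 were run on the recovered reads as alternatives, with others of filter, pseudocount, scaling, depth and left-out libraries. Groups came from the labels. Named genes were the 15 largest concordant differences each way with a symbol, the 5 largest each way among long non-coding and unannotated genes, list genes that passed (up to 8 a list), the 4 reprogramming factors, and up to 3 members of each list with no call. Members and lists were chosen with earlier results of these data known. Promoters came from RefSeq (GRCm38.p6).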

Additional observations from a re-analysis of the deposited data

Results flagged for a closer look

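Of 101 named genes, 15 had an R10 stem cell library set apart from the other 6 by a gap of more than 0.568 of the group's range, where chance gives about 1 in 20. Most of these came from the R1 library without an n number. In it Gpx2 was at 37.3 CPM (the others 91.4 to 153), Tnni1 at 10.1 (56.1 to 70.8), Ccdc141 at 6.35 (12.4 to 19.5) and Plagl1 at 9.71 (22.6 to 36.1). The adhesion genes Cdh1 and Epcam were at 63.9 CPM (127 to 174) and 12.3 CPM (68.9 to 96.8). Tdgf1, a Nodal co-receptor, was at 252 CPM (389 to 506). Trim28, a silencer of retrotransposons, was at 696 CPM (260 to 372) and the interferon gene Ifitm2 at 258 (127 to 151). The mitochondrial genes mt-Rnr2, mt-Rnr1 and mt-Nd1 were at 256, 292 and 272 CPM, against lowest values in the others of 8680, 4053 and 3456. In the second R1 clone 3 library Cnpy1 was at 4.26 CPM (11.8 to 17.1) and Tmem92 at 1.16 CPM (0 to 0.236). In the first O4G library Acly, an enzyme of lipid synthesis, was at 124 CPM (240 to 328).

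The difference between reprogrammed cells and stem cells itself differed between R10 and R9 for 3 named genes, by limma's interaction term. Sulf1 was -1.12 in R9 and -3.75 in R10 (change -2.63, limma adjusted p = 0.0433), lower in both. Sycp3 was -0.01 in R9 and 2.47 in R10 (change 2.48, limma adjusted p = 0.0327). The histone gene H2az1 was -0.07 in R9 and -1.13 in R10 (change -1.06, limma adjusted p = 0.0247).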

How the results depend on the processing

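No paired analysis was possible because the labels of the reprogrammed libraries carry no replicate number. Of the 61 named genes that passed, 24 passed in every alternative they were given, and 0 of 1748 gene values reversed. The combined count of 479 was 231 with a minimum of 5 CPM, 206 with edgeR, 281 with DESeq2, 191 with array weights, 89 against O4G stem cells alone, 154 on thinned reads and 253 with OKMS cells alone. It ranged from 231 to 607 when 1 library was left out, lowest without the R10 OKS library. Of the 284 concordant genes, 143, 152, 169, 146, 68, 109 and 139 were still called in the same order. It was 188 with OKS cells alone, and 152 to 274 with 1 library left out. The separation of the libraries was not judged anew in these fits, so these numbers could not rise above 284. The R9 count of 90 was 49 with a pseudocount of 0.25, 0 with no filter, 173 with a minimum of 5 CPM, 5 with quantile normalization, 166 with median centring, 164 with edgeR, and 0 against O4G alone, on thinned reads, at day 20 alone or without any 1 library. The R10 count of 1411 was 852 with a minimum of 5 CPM, 241 with edgeR, 443 with DESeq2, 209 with array weights, 39 against O4G alone, 266 on thinned reads, and 960 to 1969 with 1 library left out. The interaction count of 171 was 532 with numbered stem cells alone. The cause of these shifts was not tested, beyond the fewer libraries or reads that some alternatives use by construction. Centring each chromosome was chosen after seeing the data and gave 491. Depth limits genes of few reads: the shallowest library held 567129 reads, so 3 reads there are several CPM, and PCR copies in R10 are not independent molecules.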

Other observations

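Some abundant genes outside the lists were concordant, and they are given here as values chosen after they were seen. Eif1ax, an X-linked translation initiation factor, had 910, 857 and 868 CPM in R9 reprogrammed cells against 355 and 273 in stem cells, and 619 and 738 against 167 to 254 in R10 (1.59, SE 0.12, limma adjusted p = 1.8e-07). Bclaf3, also on the X chromosome, had 111, 144 and 133 CPM against 38.8 and 36.3, and 254 and 213 against 29.9 to 84.1 (1.78, SE 0.20, limma adjusted p = 2.8e-05). Pttg1, the securin that holds back separase in mitosis, had 986, 635 and 570 CPM against 264 and 219, and 926 and 785 against 80.2 to 330 (2.18, SE 0.27, limma adjusted p = 7.3e-05). The R1 library without an n number held the highest stem cell value of Pttg1 and the lowest of Eif1ax and Bclaf3.

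Coil, the scaffold protein of Cajal bodies, was higher by 1.19 (SE 0.17, limma adjusted p = 0.00055), at 223 to 391 CPM against 110 and 116 in R9 and at 319 and 396 against 122 to 267 in R10. Rpl39l, a germ cell form of a ribosomal protein, was higher by 1.24 (SE 0.19, limma adjusted p = 0.00072), at 300 to 473 CPM against 163 and 197 and at 393 and 499 against 108 to 289. Trap1a, an X-linked gene, was on the lower side at 242 to 297 CPM against 437 and 496, and at 127 and 185 against 230 to 467 (-1.08, SE 0.17, limma adjusted p = 0.00078).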
